A study of Mus musculus with 3 samples.

Results

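Galectins, S100 proteins, annexins, the actin-capping protein CapG and the filament protein vimentin make up a set of calcium-, glycan- and cytoskeleton-binding proteins whose genes are commonly higher in effector and memory T cells than in naïve ones. The 10 genes described here are Lgals1, Lgals3, S100a4, S100a6, S100a10, S100a11, Capg, Anxa1, Anxa2 and Vim, out of 19518 genes measured. They were chosen by their intensities in PLZFlu/lu against PLZF+/+ cells on these same arrays, so their differences between genotypes are a description and not a test. Each gene was read from the probe set that names it alone. S100a11 has a second such probe set, and the one with the higher mean log2 value was used.

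The arrays were made from CD4+CD8- thymocytes of PLZFlu/lu, PLZF+/lu and PLZF+/+ mice, all female, 3 to 4 weeks old and on the C57Bl/6 background, with 1 array per genotype. All carried the Vγ1Vδ6.4 T cell receptor transgenes, which drive a large population of γδNKT-like cells, on a Rag1-/- background, so no other antigen receptor is rearranged. PLZF, encoded by Zbtb16, is the transcription factor that gives NKT cells their innate-like effector state, and the luxoid allele (lu) is a point mutation in it. The mutation leaves a transcript that can still hybridise, so the probe set of Zbtb16, at 2890 in PLZFlu/lu, 6143 in PLZF+/lu and 8796 in PLZF+/+ cells, does not fully check the labels. How many mice each array stands for was not stated.

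Values are probe set intensities on a linear scale as the authors deposited them, with array medians of 159.7 to 161.8. Differences are log2 intensity of the mutant minus PLZF+/+ unless another pair is named, and genes are counted as lower or higher past 2-fold by size alone, since single arrays have no replicate error and allow no p-value. Intensities were identical on the 3 arrays at 45.1% of the 24800 probe sets, so a difference of 0 is common in these data. The level of 108, below which 95% of the values of 1033 olfactory receptor probe sets fall, is used as the background. Of 13 measured T cell identity genes, all exceeded it (1 lower in PLZFlu/lu than in PLZF+/+, 10 higher, 2 equal). None differed by more than 2-fold between these genotypes, against 0.589% of all probe sets. Cd4, the coreceptor used for sorting, was at 7191, 6208 and 6401 in PLZFlu/lu, PLZF+/lu and PLZF+/+. Cd3e, of the T cell receptor complex, was at 10599, 11334 and 10550 in the same order. In sorted cells, a smaller share of cells with a transcript and less transcript per cell cannot be told apart.

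Of the 10 genes, 5 were more than 2-fold lower in PLZFlu/lu than in PLZF+/+ cells (Lgals3, S100a4, S100a6, Capg and Lgals1), and none was more than 2-fold higher. Over all probe sets, 0.286% were lower by more than 2-fold and 0.302% higher. The choice of the genes used this comparison, so nothing is read from the excess. In all, 9 of the 10 were lower in PLZFlu/lu to some degree and 1, Vim, was higher, while 24.5% of all probe sets were lower. All but Anxa1 exceeded the background on every array, and among the 15090 probe sets above background on at least 1 array, 0.437% were lower by more than 2-fold and 34.8% lower to any degree. The median log2 difference was -0.73 over the 10 genes and 0.00 over all probe sets. Of the other 5, S100a10, S100a11, Anxa2 and Vim in PLZFlu/lu stayed within 1.27-fold of PLZF+/+, and Anxa1 lay below the background. The 10 genes thus did not move as a block.

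**Figure D1:**
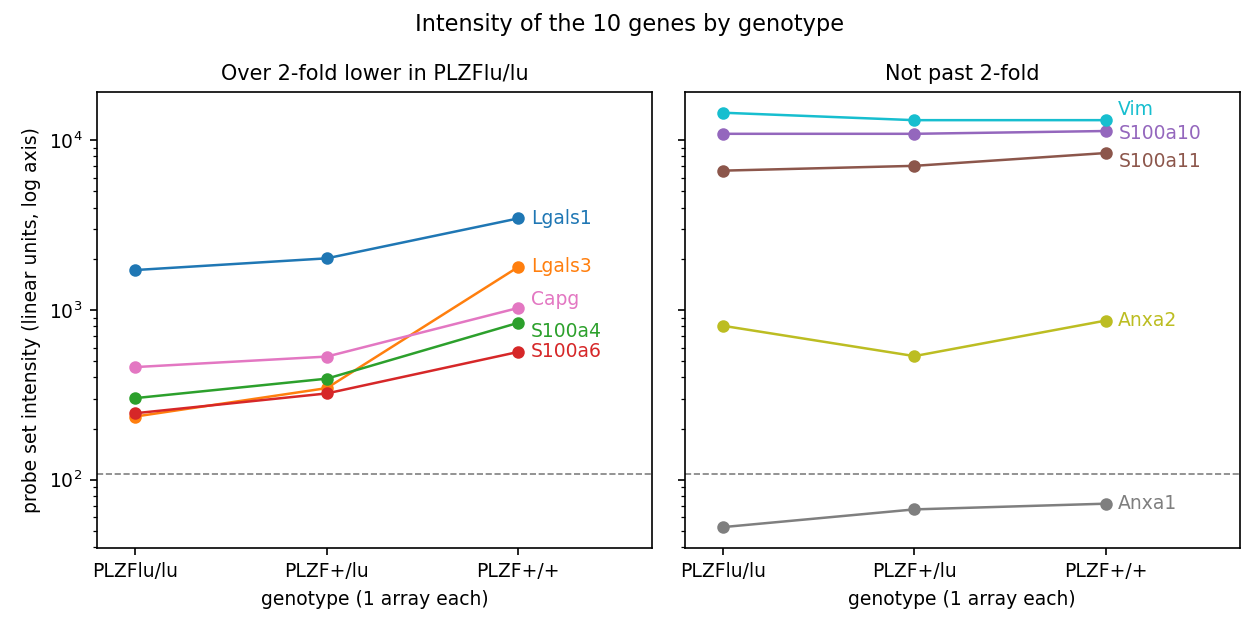
Probe set intensity of the 10 genes (log axis) in PLZFlu/lu, PLZF+/lu and PLZF+/+ thymocytes, 1 array per point and so no error bars; the dashed line is the background level of 108. In the left panel Lgals1, Lgals3, Capg, S100a4 and S100a6 lie lowest in PLZFlu/lu, slightly higher in PLZF+/lu and clearly higher in PLZF+/+; in the right panel Vim, S100a10 and S100a11 are nearly level, Anxa2 dips in PLZF+/lu and Anxa1 stays below the line.

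Galectins are lectins that bind β-galactosides and crosslink surface glycoproteins. Lgals3, which encodes galectin-3, the member of the family with a tail that lets it form oligomers, had an intensity of 235 in PLZFlu/lu, 346 in PLZF+/lu and 1787 in PLZF+/+ cells. Both mutant genotypes lay far below PLZF+/+ and close to each other. The difference between PLZFlu/lu and PLZF+/+ was -2.92 on the log2 scale, a 7.59-fold lower value, and ranked 1 of 19518 genes counted from the lowest. Lgals1, which encodes galectin-1, a dimeric galectin known to modulate T cell survival, was at 1715, 2010 and 3453 in the same order of genotypes. Its difference was -1.01 on the log2 scale, or 2.01-fold lower in PLZFlu/lu, which lies at the threshold: after quantile normalization it was -0.99 and with 32 added to each intensity -0.997, just short of 2-fold.

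The remaining galectins were nearly level. Of 8 measured family members, with Lgals1 and Lgals3 counted, only these 2 were lower in PLZFlu/lu, while 2 were higher and 4 equal. The median log2 difference of the 8 was 0.00. Lgals9, which encodes galectin-9, a tandem-repeat galectin, was at 4160 in PLZFlu/lu, 4200 in PLZF+/lu and 3702 in PLZF+/+, a difference of 0.17. Lgals8, another tandem-repeat galectin, was at 1665 on all 3 arrays. Galectins act on glycans of surface receptors. Of 26 measured genes for galectin ligands and for enzymes that build or cap their glycans, 10 were lower in PLZFlu/lu, 9 higher and 7 equal. None of them passed 2-fold, against 0.589% of all probe sets. In that list St3gal1, a sialyltransferase that caps O-glycans, had the largest difference (0.47, at 4022 in PLZFlu/lu, 3738 in PLZF+/lu and 2900 in PLZF+/+). Cd44, an adhesion receptor and activation marker, was at 204, 247 and 272, a difference of -0.41. Cd7, a receptor for galectin-1 on human T cells, was at 3474, 4213 and 4602, also a difference of -0.41.

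S100 proteins are small EF-hand proteins that bind target proteins, most of them on a rise in calcium. S100a4, which binds non-muscle myosin and is known from motile cells, was at 302 in PLZFlu/lu, 393 in PLZF+/lu and 839 in PLZF+/+ cells. This is a log2 difference of -1.47, or 2.78-fold lower in PLZFlu/lu. S100a6, which encodes calcyclin, was at 246, 322 and 565, a difference of -1.20, or 2.30-fold lower in PLZFlu/lu. For both genes PLZF+/lu lay above PLZFlu/lu and well below PLZF+/+. S100a11, which encodes calgizzarin, an annexin A1 partner, was at 6597, 7040 and 8375 in the same order, a difference of -0.34. Its other probe set was at 5691, 5810 and 6870, with a difference of -0.27 and the same order of genotypes. S100a10, which encodes p11, a member that no longer responds to calcium and forms a tetramer with annexin A2, was at 10870 in PLZFlu/lu, the identical value in PLZF+/lu, and 11289 in PLZF+/+. Its difference of -0.05 is a 1.04-fold lower value in both mutant genotypes.

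Across the family, 17 S100 genes were measured, of which 9 were lower in PLZFlu/lu, 1 higher and 7 equal, with a median of -0.05. The members past 2-fold, against 0.589% of all probe sets, were S100a4 and S100a6. These genes are neighbours in the S100 gene cluster on chromosome 3, with S100a5 between them. S100a5 was at 99.6 on all 3 arrays, below the background level. Of the 12 protein-coding genes that the annotation lists from S100a1 to S100a9, the 10 other than S100a4 and S100a6 differed by -0.30 to 0.00 on the log2 scale, and 3 of them did not exceed the background on any array. S100a3, next but one to S100a4, had the lowest of these differences, at 115 in PLZFlu/lu and 142 in both PLZF+/lu and PLZF+/+. Outside the cluster, the neighbouring genes Chtop, Snapin and Ilf2 differed by -0.06, 0.00 and -0.05. S100a10 and S100a11 stand next to each other elsewhere on the same chromosome.

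**Figure D2:**
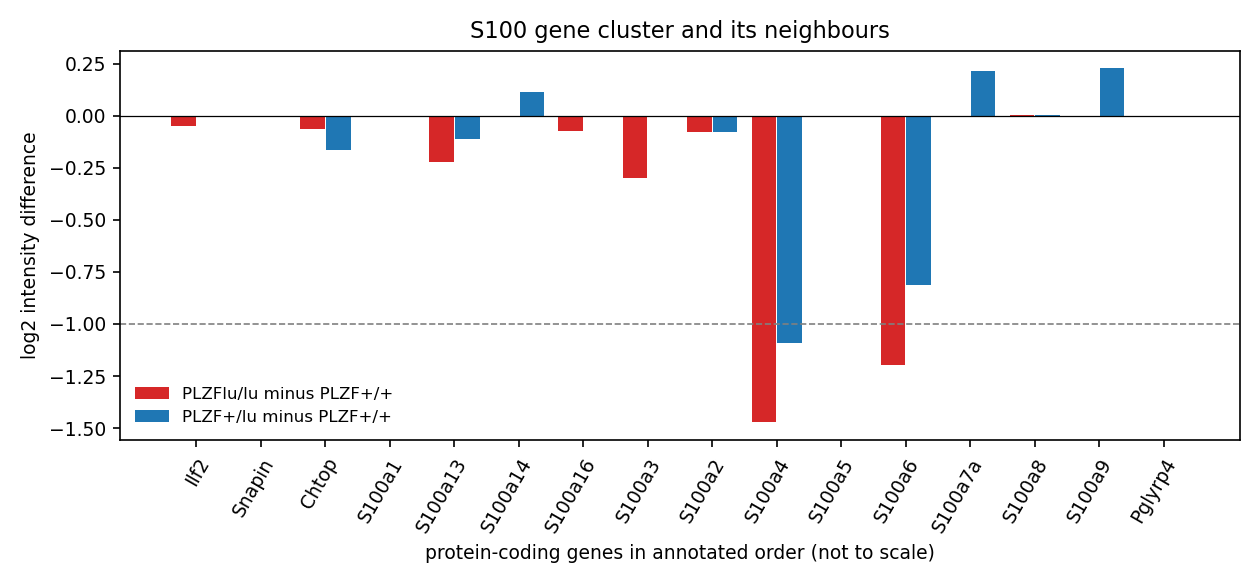
Log2 intensity differences of PLZFlu/lu minus PLZF+/+ (red) and PLZF+/lu minus PLZF+/+ (blue) for the genes of the S100 cluster and their neighbours, in the order of the annotation, from single arrays without error bars. S100a4 (-1.47 and -1.09) and S100a6 (-1.20 and -0.81) stand out from a run of bars between -0.30 and 0.23, and the dashed line marks 2-fold; a gene without a bar had equal values.

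Capg encodes a capping protein of the gelsolin family that blocks the fast-growing ends of actin filaments in a calcium-dependent way and, unlike gelsolin, does not sever them. Its intensity was 460 in PLZFlu/lu, 531 in PLZF+/lu and 1026 in PLZF+/+ cells, so both mutant genotypes were low. The difference was -1.16 on the log2 scale, or 2.23-fold lower in PLZFlu/lu. Of 12 measured genes of the gelsolin family and of actin capping, 5 were lower in PLZFlu/lu, 2 higher and 5 equal. Capg was the member past 2-fold, against 0.589% of all probe sets. Gsn, which encodes gelsolin itself, had 1058 in both mutant genotypes, against 1141 in PLZF+/+, a difference of -0.11. Capzb, the β subunit of the capping protein CapZ, was at 2906, 2997 and 3097, a difference of -0.09.

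Upstream sequences of the genes past 2-fold were set side by side. A RefSeq table of promoters (GRCm38.p6) has an entry for 8 of the 10 genes, and the 250 bases before each start were searched on both strands for 6 motifs, chosen after the intensities were seen. None of the 6 occurred in all of Lgals3, S100a4, S100a6 and Capg. CAGGTG, an E-box bound by E proteins, was found in Lgals3 and Capg (17.2% of 32851 promoters hold it), TGTGGT, bound by RUNX factors, in S100a6 (14%), and TATAAA, the TATA box, in S100a4, Anxa1, Anxa2 and Vim (12.4%). TGANTCA, the AP-1 site, was found in S100a11 and Anxa2 (6.75%), GGGCGG, a GC box, in Lgals3, S100a11 and Anxa2 (32.7%), and CCACCC, bound by KLF factors, in S100a4, Capg, Anxa2 and Vim (28.1%). In Capg the match of CCACCC overlaps a match of CAGGTG. The matches of CAGGTG begin 223 and 114 bases before the start in Lgals3 and 243 and 62 bases before it in Capg. A match in these letters is a description and not a binding site. The stretches are printed for the genes past 2-fold with an entry, because they are the promoters of genes that were lower in PLZFlu/lu; capitals mark the E-box, RUNX and TATA motifs on either strand.
Lgals3 (chr14:47373610-47373859, + strand): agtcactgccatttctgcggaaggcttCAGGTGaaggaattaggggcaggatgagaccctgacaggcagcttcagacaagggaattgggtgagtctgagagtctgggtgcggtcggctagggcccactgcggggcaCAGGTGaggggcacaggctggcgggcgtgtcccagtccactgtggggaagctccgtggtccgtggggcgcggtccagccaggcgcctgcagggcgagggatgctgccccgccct
Capg (chr6:72549397-72549646, + strand): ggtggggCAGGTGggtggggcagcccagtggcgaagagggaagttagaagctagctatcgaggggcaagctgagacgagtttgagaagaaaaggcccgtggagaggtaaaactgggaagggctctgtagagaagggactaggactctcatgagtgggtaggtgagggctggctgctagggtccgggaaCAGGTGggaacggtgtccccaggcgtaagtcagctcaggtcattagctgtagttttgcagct
S100a4 (chr3:90603520-90603769, + strand): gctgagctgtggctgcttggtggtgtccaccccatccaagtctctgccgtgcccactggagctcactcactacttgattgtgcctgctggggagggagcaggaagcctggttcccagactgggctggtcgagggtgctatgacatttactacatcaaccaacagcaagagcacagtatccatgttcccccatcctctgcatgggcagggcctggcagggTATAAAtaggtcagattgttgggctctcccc
S100a6 (chr3:90612644-90612893, + strand): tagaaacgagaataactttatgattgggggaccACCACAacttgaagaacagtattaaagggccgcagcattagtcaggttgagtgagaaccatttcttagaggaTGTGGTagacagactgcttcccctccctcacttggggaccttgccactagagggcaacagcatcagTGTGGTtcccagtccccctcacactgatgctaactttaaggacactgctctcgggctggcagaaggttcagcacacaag

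Annexins bind phospholipid membranes in the presence of calcium. Anxa2, which encodes annexin A2, the partner of p11 at the plasma membrane, was at 805 in PLZFlu/lu, 534 in PLZF+/lu and 865 in PLZF+/+ cells. PLZFlu/lu and PLZF+/+ were close (a difference of -0.10) and PLZF+/lu was the low array, by 1.62-fold against PLZF+/+ and with PLZFlu/lu 1.51-fold above it. Anxa1, which encodes annexin A1, an anti-inflammatory protein induced by glucocorticoids, was at 52.6, 66.8 and 72.2 in PLZFlu/lu, PLZF+/lu and PLZF+/+, below the background level of 108 on every array, so no fold is given for it. Of the 12 annexins measured, 6 were lower in PLZFlu/lu, 1 higher and 5 equal. None differed by more than 2-fold, against 0.589% of all probe sets. Among the others, Anxa5, the annexin used to stain dying cells, was at 2249, 2199 and 2277, and Anxa6, a membrane organiser with a doubled annexin core, was at 4841, 4476 and 4534. The differences were -0.02 and 0.09. Anxa7, a regulator of membrane fusion, was at 469, 472 and 512, the lowest difference (-0.13) of the annexins outside the 10 genes.

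Vimentin is the main intermediate filament protein of lymphocytes, where it forms a cage around the nucleus. Vim was at 14467 in PLZFlu/lu, 13078 in PLZF+/lu and 13079 in PLZF+/+ cells, a log2 difference of 0.15, or 1.11-fold higher in PLZFlu/lu. PLZF+/lu and PLZF+/+ were nearly equal. Of 15 measured genes of lamins and of intermediate filaments other than keratins, 4 were lower in PLZFlu/lu, 2 higher and 9 equal. None passed 2-fold, against 0.589% of all probe sets. Lmnb1, which encodes lamin B1 of the nuclear envelope, was at 499, 499 and 504, and Nes, the nestin gene, did not exceed the background at 49.6, 49.6 and 43.4.

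Over the lists of these 5 families, keratins left out, 54 measured genes were not among the 10. None of them differed by more than 2-fold between PLZFlu/lu and PLZF+/+, against 0.589% of all probe sets. At that share a list of this size can hold none, and nothing is read from the count. The largest difference was 1.23-fold, for S100a3. Of the 54, 32 exceeded the background on at least 1 array, and of these 15 were lower in PLZFlu/lu, 5 higher and 12 equal.

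**Figure D3:**
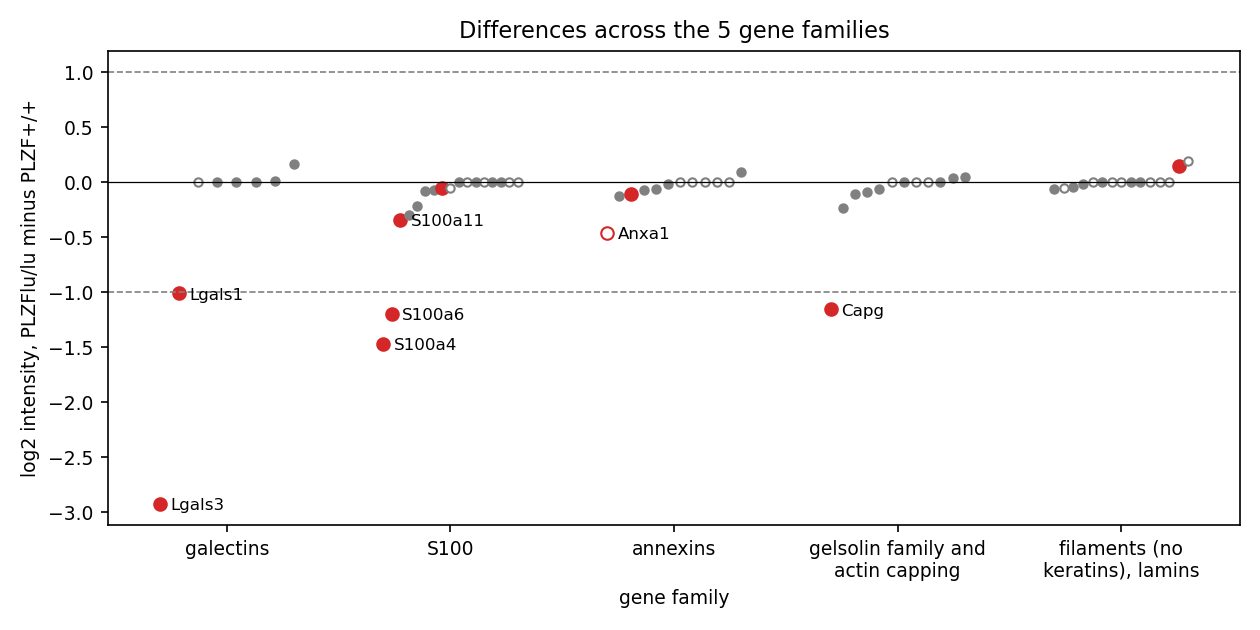
Log2 intensity difference, PLZFlu/lu minus PLZF+/+, for the measured genes of the 5 family lists (galectins, S100 proteins, annexins, gelsolin family and actin capping, lamins and intermediate filaments other than keratins), 1 array per genotype. Red points are the 10 genes described and grey points the other 54; open symbols did not exceed the background of 108 on any array, dashed lines mark 2-fold, and the points below the lower line are Lgals3, S100a4, S100a6, Capg and, just under it, Lgals1.

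PLZF+/lu cells carry 1 luxoid allele, and for the 5 genes past 2-fold their array lay nearer to PLZFlu/lu than to PLZF+/+. For Lgals3, PLZF+/lu was 5.16-fold below PLZF+/+, while PLZFlu/lu was 1.47-fold below PLZF+/lu. S100a4 was 2.13-fold lower in PLZF+/lu than in PLZF+/+, and 1.30-fold lower in PLZFlu/lu than in PLZF+/lu. For Capg the same steps were 1.93-fold and 1.15-fold, for S100a6 1.76-fold and 1.31-fold and for Lgals1 1.72-fold and 1.17-fold. So 2 of the 10 genes, Lgals3 and S100a4, were past 2-fold between PLZF+/lu and PLZF+/+, against 0.234% of all probe sets (0.165% lower, 0.0685% higher). To any degree all 10 genes were lower in PLZF+/lu than in PLZF+/+, with a median log2 difference of -0.74, as were 24.1% of all probe sets. That count includes Vim, which was practically equal (-0.0001 on the log2 scale), and Anxa1, which lay below the background on every array. Between PLZFlu/lu and PLZF+/lu none of the 10 passed 2-fold, against 0.319% of all probe sets (0.121% lower, 0.198% higher). To any degree 7 of the 10 were lower in PLZFlu/lu than in PLZF+/lu, 2 higher and 1 equal, with a median of -0.22, and 24.6% of all probe sets were lower. The comparisons share arrays, so the steps are not independent of each other.

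Where 0 is the log2 value of PLZFlu/lu and 1 that of PLZF+/+, PLZF+/lu stood at 0.18 for Capg, 0.19 for Lgals3, 0.23 for Lgals1, 0.26 for S100a4 and 0.32 for S100a6. Between 67.7% (S100a6) and 82.2% (Capg) of the log2 difference thus lay between PLZF+/lu and PLZF+/+. Over the 71 probe sets lower by more than 2-fold in PLZFlu/lu, which include these 5, the median position was 0.40, with quartiles of 0.30 and 0.58, and 23 of the 71 stood at or below 0.32. PLZF+/lu was strictly between the other genotypes at 66 of the 71 probe sets (93%) and at 7 of the 10 genes. The 7 include Anxa1, below the background, and quantile normalization gave 8. Over all probe sets PLZF+/lu was between at 11.8%, but 45.1% had identical intensities on the 3 arrays and could not be. The 71 were picked for a wide gap between PLZFlu/lu and PLZF+/+, and PLZF+/lu falls inside a wide gap more easily. The 10 genes were also chosen by that comparison. Nothing is therefore read from these shares. The exceptions among the 10 were S100a10, with equal values in the mutant genotypes, Anxa2, lowest in PLZF+/lu, and Vim, with PLZF+/lu and PLZF+/+ nearly equal. Zbtb16 itself was 3.04-fold lower in PLZFlu/lu than in PLZF+/+.

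**Figure D4:**
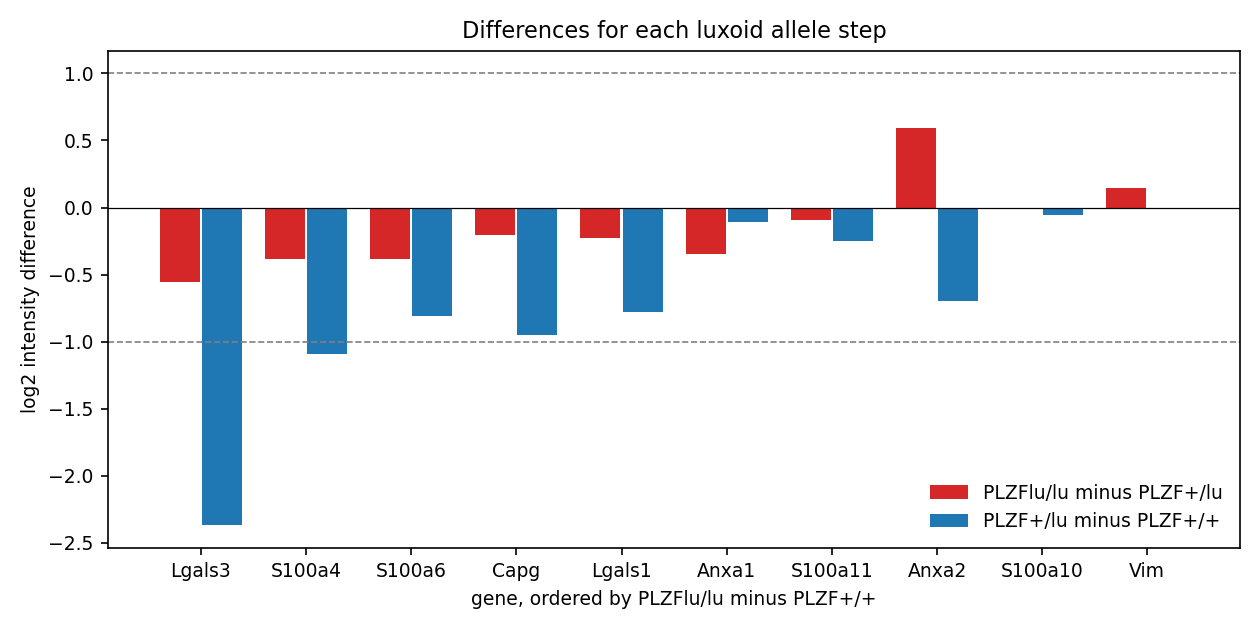
Log2 intensity differences of PLZFlu/lu minus PLZF+/lu (red) and PLZF+/lu minus PLZF+/+ (blue) for the 10 genes, ordered by PLZFlu/lu minus PLZF+/+, from single arrays without error bars; dashed lines mark 2-fold, and Anxa1 is below background on every array. For Lgals3, S100a4, S100a6, Capg and Lgals1 the blue bar is the longer one, with Lgals3 at -2.37 against a red bar of -0.56, and for Anxa2 the bars point in opposite directions (0.59 and -0.70).

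The genes whose intensities lay nearest to those of a gene past 2-fold, by the distance of their log2 values centred over the 3 arrays and among 11973 genes above background, were as follows. Nearest to Lgals3 were Maf, a regulator of cytokine genes, at a distance of 0.47, Lgi1 at 0.47, Tns4 at 0.62, Cacna1e at 0.71 and Ccr2, a receptor for inflammatory chemokines, at 0.73. Maf was at 164 in PLZFlu/lu, 260 in PLZF+/lu and 874 in PLZF+/+. Nearest to Lgals1 was Rxra, the retinoid X receptor α gene (0.02), followed by Tirap, Tox2, Gnaq and Cntnap1 (0.11 for the last). Nearest to Capg was Tcf19 (0.03), followed by Tox2, Cntnap1, Sdf2l1 and, as the fifth, Lgals1 (0.13). S100a6 had Plekhg3 (0.05), Cntnap1, Nrp1, Susd2 and Adh1 (0.08) nearest, and S100a4 had Sdf2l1 (0.11), Lxn, Tnfsf4, Il18r1 and Smtn (0.12). With 3 arrays, many genes take similar shapes, and the distances describe these arrays only. S100a4 and S100a6, though neighbours on the chromosome, were 0.23 apart, and 10 other genes lay nearer to S100a4.

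Of 25 measured genes for proteins that bind S100 proteins, annexins or vimentin, 10 were lower in PLZFlu/lu, 4 higher and 11 equal. None of these partner genes passed 2-fold, against 0.589% of all probe sets. Stip1, a co-chaperone that S100 proteins can bind, had the largest difference, at 2323 in PLZFlu/lu, 2499 in PLZF+/lu and 3382 in PLZF+/+ (-0.54 on the log2 scale). Ahnak, a giant scaffold that binds the annexin A2 and p11 tetramer, was at 215, 231 and 283 (-0.40). Myh9, the non-muscle myosin heavy chain that S100a4 binds, was at 6364, 6291 and 6291.

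Other genes of the effector-memory state went both ways. Of 45 measured, 22 were lower in PLZFlu/lu, 13 higher and 10 equal, with a median log2 difference of 0.00. More than 2-fold lower were 5 and more than 2-fold higher 1, against 0.286% and 0.302% of all probe sets. Some of the list's genes were known from these arrays, so its counts are not independent evidence. The 4 with the largest differences were Ccr2 (-2.52), Rora, an orphan nuclear receptor of innate lymphocytes (-2.42), Emp1, an epithelial membrane protein (-1.69), and Id2, an inhibitor of E proteins (-1.55). Emp1 was at 170 in PLZFlu/lu, 199 in PLZF+/lu and 546 in PLZF+/+, so that PLZF+/lu again lay near PLZFlu/lu, while Id2 was at 4554, 9322 and 13326, with PLZF+/lu nearer to PLZF+/+. Il18r1, a subunit of the receptor for interleukin 18, was the fifth gene past 2-fold. The gene that was higher was Fgl2, a secreted fibrinogen-like protein, at 1248, 697 and 433. Of 20 measured genes of naïve T cells, 12 were higher in PLZFlu/lu, 4 lower and 4 equal, with a median of 0.02. Bach2, a repressor of effector genes, was the member past 2-fold, at 1231 in PLZFlu/lu, 801 in PLZF+/lu and 449 in PLZF+/+. Of all probe sets, 0.589% passed 2-fold in either direction.

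Several of the 10 genes are also expressed by myeloid and stromal cells, so markers of other cells were read beside them. Of 97 measured marker genes in 8 lists, 70 were equal in PLZFlu/lu and PLZF+/+, 11 lower in PLZFlu/lu and 16 higher. The 1 gene past 2-fold, against 0.589% of all probe sets, was Cxcr2, a chemokine receptor of the neutrophil list. Its intensity was 185 in PLZFlu/lu, 291 in PLZF+/lu and 415 in PLZF+/+. Of the 25 macrophage and dendritic cell markers, 17 did not exceed the background on any array, and the summed intensity of the list was 2692, 2664 and 2673. Csf1r, the receptor that macrophages depend on, was at 72.5, Cd14 at 46.0 and Adgre1, the gene of F4/80, at 36.0 on all 3 arrays. For neutrophil markers the sum was 1071, 1216 and 1301, with S100a8 no higher than 34.6, and 9 of the 13 stayed below background. Cxcr2 was the 1 marker of the 13 that was lower in PLZFlu/lu than in PLZF+/+. Of the others, 2 were higher, by at most 0.02 on the log2 scale, and 10 equal. For 11 fibroblast markers the sum was 1347, 1423 and 1446. Pdgfrb, a growth factor receptor, was the 1 fibroblast marker lower in PLZFlu/lu than in PLZF+/+, at 202, 265 and 324. Of the other fibroblast markers 1 was higher and 9 were equal. The sum for 12 thymic epithelial markers was 1533, 1588 and 1518. Sums were 2124, 2151 and 2368 for 10 B cell, 14381, 13916 and 14520 for 11 NK cell, 3513, 3525 and 3498 for 10 endothelial and 654, 681 and 655 for 6 erythroid markers. Single genes made up most of the B cell, NK cell and endothelial sums: Cd79b (1406 in PLZFlu/lu), Nkg7 (11139) and Pecam1 (2643). Nkg7 is also in the effector-memory list and Pecam1 in the naïve list, so the NK cell and endothelial sums say little about other cells. Cd79b, at 1406, 1440 and 1658, was the 1 B cell marker lower in PLZFlu/lu than in PLZF+/+ (-0.24). Of the other B cell markers 1 was higher and 8 were equal. Markers of CD4+CD8+ thymocytes differed in the other direction from the 5 genes: 7 of 11 were higher in PLZFlu/lu, 1 lower and 3 equal, with a median of 0.28 and a sum of 25311 in PLZFlu/lu, 23209 in PLZF+/lu and 22536 in PLZF+/+. The 7 include Rag1 (278, 211 and 229), although all the mice were Rag1-/-. Ccr9 was the lower marker (-0.07), and Rag2, Ptcra and Cd1d1 were equal in PLZFlu/lu and PLZF+/+. Cd8b1, the CD8 β chain, was at 2958, 2263 and 1290, or 2.29-fold higher in PLZFlu/lu than in PLZF+/+. It was the marker past 2-fold, against 0.302% of all probe sets higher by as much. Cd24a, a marker of immature thymocytes, was at 361, 207 and 213. The T cell identity list (10 of 13 higher, 1 lower, median 0.01) and the naïve list (12 of 20 higher, 4 lower, median 0.02) also leaned higher. That direction is thus not particular to these markers. The part of CD4+CD8+ thymocytes in the lower intensities of Lgals3, S100a4, S100a6, Capg and Lgals1 was not tested.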

How the data were processed

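RNA of double-sorted CD4+CD8- thymocytes was hybridised to 3 arrays, 1 for each genotype, of the Affymetrix Mouse Gene 1.0 ST type. The authors worked in GenePattern 3.21 with its modules ExpressionFileCreator, MultiplotPreprocess and Multiplot, took out the normalization control probe sets and deposited a linear intensity for each of 24800 probe sets. The processing notes of the submitters name the build mm 8. The settings for background correction, summary and scaling were not stated, and the deposited intensities were used unchanged.

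The platform annotation lists exactly 1 gene for 21065 probe sets, several for 1187 and none for 2548. Only the first kind was named, with 20983 symbols brought up to date by gene identifier in the RefSeq table of GRCm38.p6. Genes with more than 1 probe set were read from the one of highest mean log2 value. Counts are of differences in log2 intensity past 2-fold, with values within 1e-06 taken as equal. Single arrays allow no test, and their number limits the precision.

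The genes and lists were chosen with earlier results of these data known. Named are the 10 genes, Zbtb16, in each family, partner or state list up to 4 genes past 2-fold (or the leading 2 where none passed), the 5 nearest patterns of each gene past 2-fold, and neighbours in the S100 cluster. Lists of cell markers are given by counts and sums. Other family members, Myh9, Il18r1, Fgl2 and the single markers of cell types were picked after their values were seen, for their role. S100a2 and Capza3 were added to the family lists, and S100pbp removed, at that stage too.

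As alternatives, intensities were quantile normalized, median-centred or raised by 32. Dim probe sets were left out, probe sets of a gene were averaged, PLZF+/+ and PLZF+/lu were averaged as the baseline, and thresholds of 1.5-fold and 3-fold were used. The counting was tested on simulated data. Python 3.11.15, numpy 2.4.6 and pandas 2.3.3 were used. The cytometry and qPCR of the study were not analysed here.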

Additional observations from a re-analysis of the deposited data

How the results depend on the processing

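No paired analysis was possible because there is 1 array per genotype, and for the same reason no array could be left out. Centring on the median, the mean over probe sets of a gene and adding 32 kept the 10 differences in direction. Quantile normalization kept 9, with S100a10 at a difference of 0. Lgals1 lay at the threshold and fell below 2-fold with quantile normalization (-0.99) and with 32 added (-0.997). Without dim probe sets Anxa1 is left out, and the median log2 difference of the remaining 9 was -1.01. Against the average of PLZF+/+ and PLZF+/lu, a baseline that by construction lowers the difference of a gene with PLZF+/lu in the middle, 1 of the 10 genes (Lgals3) and 96 probe sets were past 2-fold, S100a4 was at -0.93, S100a6 at -0.79, Capg at -0.68 and Lgals1 at -0.62, and Anxa2 turned to 0.25, because PLZF+/lu is its low array. At 1.5-fold, 440 probe sets passed between PLZFlu/lu and PLZF+/+, 6 of the 10 genes passed between PLZF+/lu and PLZF+/+ and 1 (Anxa2) between PLZFlu/lu and PLZF+/lu. At 3-fold, 46 probe sets passed, and Lgals3 was the 1 gene of the 10 to pass against PLZF+/+, in PLZFlu/lu and in PLZF+/lu.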
